A study of Mus musculus with 14 samples.

Results

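The 7 genes described here belong to the sterol synthesis pathway and to its control by sterol regulatory element-binding proteins (SREBPs). Hmgcs1, Idi1, Fdft1, Sqle and Dhcr7 encode enzymes of cholesterol synthesis, and Insig1 and Srebf2 encode proteins that regulate it. They were taken by gene name from a count table of 55401 genes, where each name had 1 row, and all 7 were among the 14599 genes that passed a filter on low counts. RNA was sequenced from 14 tubes, each holding 4 to 5 EGFP-labelled PiC neurons, of wild-type C57BL/6 mice. The tubes formed 4 groups, male PiC-MeA (n = 3), female PiC-MeA (n = 3), male PiC-PrL (n = 4) and female PiC-PrL (n = 4). In every group the neurons had been labelled by AAVretro-EGFP, a virus taken up by axon endings, of which 0.1 µl was placed in MeA or in PrL, and the abbreviations are used as the labels give them. No group was without virus, no ages are given, and the labels do not say that tubes came from separate animals, so p-values measure only the spread between these samples.

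Cells make cholesterol from acetyl-CoA through mevalonate, isoprenoids, squalene and a series of sterols. The SREBP proteins are held in the endoplasmic reticulum by INSIG proteins when sterols are plentiful and, when sterols fall, are cut and enter the nucleus, where SREBP-2, the product of Srebf2, switches on most enzymes of the pathway and Insig1. Cholesterol does not cross the blood-brain barrier, so the brain makes its own, with glia as the main producers in the adult.

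Total counts were 6132985 to 13818625 in PiC-MeA libraries and 12077736 to 15392217 in PiC-PrL libraries. Libraries of both projections held the neuronal transcript Snap25 at 4238 CPM or more (a count relative to library size, scaled by the trimmed mean of M-values), and all 14 also held the oligodendrocyte transcript Mbp at 98.1 CPM or more. Astrocyte transcripts were present as well, though not alike. Aqp4 was at 37.2 to 147 CPM in male PiC-MeA libraries and at 0 counts in all 3 female PiC-MeA libraries, while Gfap was at 24.8 to 30.4 CPM in male PiC-MeA and 19.4 to 50.7 CPM in female PiC-MeA libraries. Transcripts of glia were thus present, and the sterol transcripts cannot be assigned to a cell type. In such pooled samples, fewer cells of a type and less RNA per cell cannot be told apart. The 3 male PiC-MeA libraries stood apart with 18964 to 20014 genes with a count, against 12479 to 14908 in the other 11.

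The promoters of Hmgcs1 and Insig1 are shown because both are known SREBP targets and their fitted differences between the projections had opposite signs, though neither passed the test. Promoters of 5 of the 7 genes (Hmgcs1, Idi1, Insig1, Dhcr7 and Srebf2) were found in the RefSeq table of build GRCm38.p6, each running from 250 bases before to 50 bases after a start site. Capitals mark 3 motifs searched on both strands: CACCCCA, the core of the sterol regulatory element, CCAAT, the box bound by NF-Y, which reads ATTGG where it lies on the other strand, and CACGTG, an E-box. The Hmgcs1 window is chr13:119690101-119690400 and the Insig1 window chr5:28071162-28071461, both on the plus strand.
Hmgcs1: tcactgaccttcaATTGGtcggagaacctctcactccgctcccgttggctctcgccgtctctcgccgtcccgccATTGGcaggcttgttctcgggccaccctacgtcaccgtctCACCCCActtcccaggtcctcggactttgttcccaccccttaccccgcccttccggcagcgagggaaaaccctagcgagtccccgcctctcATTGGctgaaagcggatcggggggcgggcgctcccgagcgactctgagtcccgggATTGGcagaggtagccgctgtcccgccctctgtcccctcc
Insig1: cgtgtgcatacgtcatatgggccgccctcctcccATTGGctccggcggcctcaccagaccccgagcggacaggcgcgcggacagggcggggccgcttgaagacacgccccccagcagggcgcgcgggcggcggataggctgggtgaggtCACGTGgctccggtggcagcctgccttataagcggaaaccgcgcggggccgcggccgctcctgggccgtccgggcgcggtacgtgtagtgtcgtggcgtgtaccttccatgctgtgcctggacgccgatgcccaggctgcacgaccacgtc
The Hmgcs1 window held 1 CACCCCA, 136 bases before the start, and 4 CCAAT boxes. The Insig1 window held 1 CCAAT box and 1 CACGTG, and these letters of CACCCCA were not in it. Srebf2 had 1 CACCCCA and 1 CCAAT box, and Idi1 had 2 CCAAT boxes. Dhcr7 has 3 start sites in the table, of which the third had 2 CCAAT boxes and the second 1 CACGTG. No matches overlapped. Of all 32851 promoters of this length, 7.62% held CACCCCA, 37.4% CCAAT and 7.15% CACGTG, so each motif is common, and a match is no more than these letters.

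Hmgcs1 was the steadiest of the 7 genes and its level was higher, without passing the test, in PiC-MeA neurons. It encodes the cytosolic HMG-CoA synthase that makes HMG-CoA early in the pathway (chromosome 13, 119690379 to 119708260 on the mm10 build, ENSMUSG00000093930.2). Male PiC-MeA libraries had 160.4, 166 and 286 CPM and female PiC-MeA libraries 282, 225 and 213 CPM. Male PiC-PrL libraries had 194, 108, 134 and 122 CPM and female PiC-PrL libraries 86.3, 209, 174 and 109 CPM. All 3 female PiC-MeA libraries lay above all 4 female PiC-PrL libraries, while the male groups overlapped. In the whole table, 4.47% of tested genes were higher in female PiC-MeA than in female PiC-PrL libraries without overlap. Hmgcs1 averaged 222 ± 54.4 CPM in PiC-MeA libraries (SD, n = 6) and 142 ± 44.9 CPM in PiC-PrL libraries (n = 8), a log2 difference of 0.64 ± 0.31 (SE, edgeR adjusted p = 0.304). In females alone the log2 difference was 0.73 ± 0.44 (edgeR adjusted p = 0.611). Over the 14 libraries its coefficient of variation was 35.5%, lower than in all but 2.10% of tested genes, against a median of 118% over those genes, which include many of low level. The other members varied by 74.6% to 114%.

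**Figure D1:**
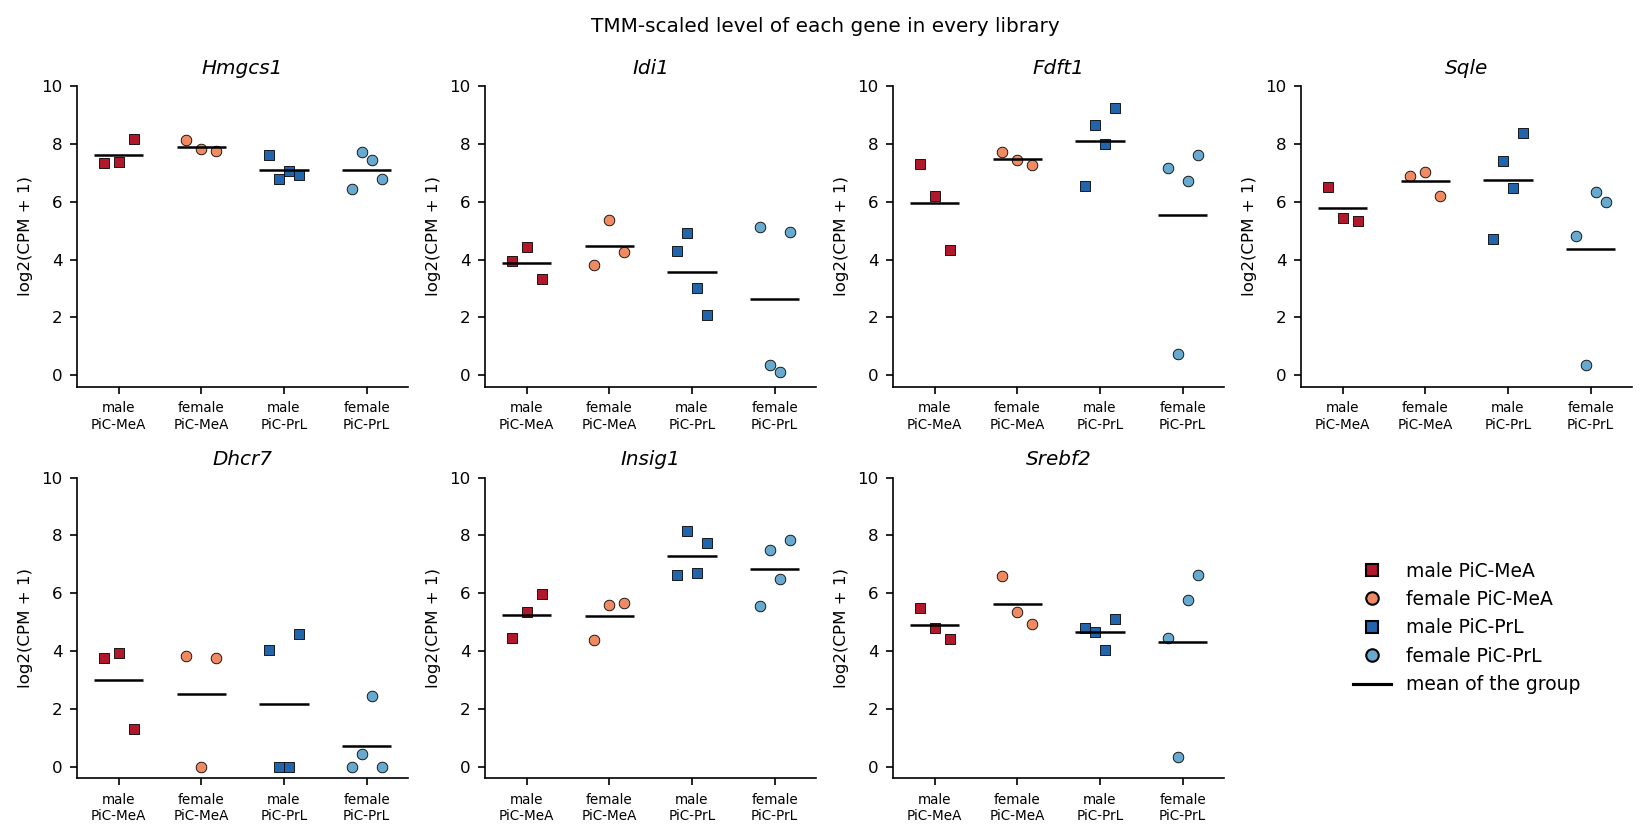
Level of each of the 7 genes in every library, as log2(CPM + 1), with a point per library and a line at each group's mean on that scale. Hmgcs1 is narrow in all 4 groups, Insig1 lies higher in the PiC-PrL groups, and female PiC-PrL replicate 2 is near 0 for Idi1, Fdft1, Sqle, Dhcr7 and Srebf2.

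Idi1 was low and scattered, and did not separate any groups. It encodes isopentenyl-diphosphate isomerase, which interconverts the isoprenoid building blocks (chromosome 13, 8885501 to 8892451, ENSMUSG00000058258.14). Its level was 14.4, 20.4 and 8.95 CPM in male PiC-MeA and 13.2, 40.0 and 18.3 CPM in female PiC-MeA libraries. Male PiC-PrL libraries had 18.6, 29.5, 7.09 and 3.23 CPM, and female PiC-PrL libraries had 33.7, 0.276, 0.0713 and 29.7 CPM. Female PiC-PrL replicates 2 and 3 held 3 counts and 1 count, while the other libraries of that group held 419 and 423. The log2 difference between PiC-MeA and PiC-PrL was 0.29 ± 1.19 (edgeR adjusted p = 0.977).

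Fdft1 and Sqle, which act one after the other, varied together from library to library. Fdft1 encodes squalene synthase, the enzyme that commits isoprenoids to sterols (chromosome 14, 63145150 to 63179578, ENSMUSG00000021273.11). Fdft1 was at 157, 72.9 and 19.3 CPM in male PiC-MeA libraries and at 210.1, 173 and 153 CPM in female PiC-MeA libraries. In male PiC-PrL libraries it was at 92.6, 399, 253 and 599 CPM, and in female PiC-PrL libraries at 143, 0.645, 104 and 193 CPM. Male PiC-PrL was the widest group, and female PiC-PrL replicate 2, with 7 counts, lay far below the rest. Exons of Fdft1 overlap those of Ctsb on the other strand over 774 bases, and since the strand setting is not given, reads there cannot be told apart. Ctsb ran from 253 to 1453 CPM over all libraries, and its log2(CPM + 1) had r = 0.471 with that of Fdft1 and 0.363 with that of Sqle (n = 14).

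Sqle encodes squalene epoxidase, which oxidises squalene on its way to the first sterol (chromosome 15, 59315077 to 59331192, ENSMUSG00000022351.14). Its level was 90.9, 42.5 and 39.7 CPM in male PiC-MeA and 116, 129 and 72.6 CPM in female PiC-MeA libraries. Male PiC-PrL libraries had 25.0, 169, 87.1 and 330.2 CPM and female PiC-PrL libraries 27.3, 0.276, 80.0 and 62.0 CPM. Male PiC-PrL replicate 4 was the highest library for both Sqle and Fdft1, and female PiC-PrL replicate 2 the lowest for both. Between the projections, log2 differences were -0.04 ± 0.74 for Sqle (edgeR adjusted p = 1.0) and -0.66 ± 0.71 for Fdft1 (edgeR adjusted p = 0.772). The sign of Sqle was not stable, since it turned to 0.31 without male PiC-PrL replicate 4.

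Dhcr7 was the member closest to the detection limit. It encodes 7-dehydrocholesterol reductase, which makes cholesterol in the last step of one branch (chromosome 7, 143823145 to 143848410, ENSMUSG00000058454.15). Male PiC-MeA libraries held 161, 175 and 10 counts and female PiC-MeA libraries 161, 0 and 194 counts. Male PiC-PrL libraries held 239, 0, 0 and 251 counts and female PiC-PrL libraries 0, 4, 62 and 0 counts. Both projections held libraries with 0 counts, 5 of 14 in all, and libraries with over 12 CPM, and 3 libraries with 10, 4 and 62 counts lay between. A count of 0 allows up to 3 counts, which came to between 0.209 and 0.244 CPM in those 5 libraries and covers counting error only. The log2 difference was 1.40 ± 1.76 (edgeR adjusted p = 0.825).

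Insig1 had the largest fitted difference of the 7 between the projections, with lower levels in PiC-MeA neurons, and came close to the threshold without passing it. It encodes the membrane protein that retains SREBPs in the endoplasmic reticulum and is itself an SREBP target (chromosome 5, 28071363 to 28078662, ENSMUSG00000045294.11). Its level was 20.8, 39.5 and 61.4 CPM in male PiC-MeA and 19.9, 47.0 and 49.6 CPM in female PiC-MeA libraries. Male PiC-PrL libraries had 98.1, 283, 102 and 210.3 CPM and female PiC-PrL libraries 46.5, 177, 89.2 and 227 CPM. In males the groups did not overlap, as was the case for 6.23% of tested genes lower in male PiC-MeA libraries. In females only replicate 1 of PiC-PrL lay inside the range of PiC-MeA.

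Averaged over both sexes, Insig1 stood at 39.7 ± 16.6 CPM in PiC-MeA (SD, n = 6) and 154 ± 82.1 CPM in PiC-PrL libraries (n = 8), a log2 difference of -1.95 ± 0.50 (SE, edgeR adjusted p = 0.0552). The difference was -2.10 ± 0.71 in males (edgeR adjusted p = 0.0946) and -1.80 ± 0.70 in females (edgeR adjusted p = 0.403). DESeq2 gave an adjusted p of 0.00142 for the average, and limma voom one of 0.0517. Leaving out any 1 library kept the average between -2.28 and -1.76, with adjusted p from 0.0570 to 0.103.

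Some other measures moved with the projection beside Insig1, and others overlapped. The summed level of 6 general neuronal markers, of which Tubb3 was at 0 throughout, was 7169 to 10361 CPM in PiC-MeA and 10819 to 20548 CPM in PiC-PrL libraries, without overlap. Snap25 had the most counts of these. By itself it overlapped in females (5180 to 7492 CPM in PiC-MeA, 6285 to 12083 CPM in PiC-PrL) but not in males. Summed levels of 6 excitatory neuron markers overlapped, at 812 to 2239 CPM in PiC-MeA (median 1319) and 1094 to 1853 CPM in PiC-PrL libraries (median 1552). The summed level of 9 astrocyte markers was 691 to 2014 CPM in PiC-MeA and 1700.1 to 6468 CPM in PiC-PrL libraries. By sex it did not overlap in females (691 to 791 CPM in PiC-MeA, 1700.1 to 2186 CPM in PiC-PrL). In males it overlapped, at 1735 to 2014 CPM in PiC-MeA and 1842 to 6468 CPM in PiC-PrL libraries. Summed levels overlapped for 7 oligodendrocyte markers, at 351 to 2355 CPM in PiC-MeA and 337 to 2201 CPM in PiC-PrL libraries. For 6 inhibitory neuron markers they were 35.7 to 1402 CPM in PiC-MeA (median 83.6) and 99.7 to 5252 CPM in PiC-PrL libraries (median 232). These sums did not overlap in females (35.7 to 92.0 CPM in PiC-MeA, 160.3 to 5252 CPM in PiC-PrL). In males they overlapped (75.2 to 1402 CPM in PiC-MeA, 99.7 to 399 CPM in PiC-PrL). For 5 endothelial and mural markers, with Cldn5 at 0 throughout, they were 16.3 to 54.7 CPM in male PiC-MeA and 0.0695 to 1.57 CPM in male PiC-PrL libraries, without overlap, and 0.302 to 0.731 CPM in female PiC-MeA and 0.357 to 1.57 CPM in female PiC-PrL libraries. For 6 microglial markers, with P2ry12 at 0 throughout, they were 67.1 to 275 CPM in PiC-MeA (median 172) and 99.2 to 642 CPM in PiC-PrL libraries (median 143). Their part in the result was not tested. Genes with at least 10 counts numbered 10124 to 15517 in PiC-MeA and 7619 to 10309 in PiC-PrL libraries. When the count of detected genes entered the fit, Insig1 gave -0.53 ± 2.14 for the average and 0.57 ± 3.98 in males. In females it gave -1.63 ± 0.76, with 13672 to 14908 genes detected in PiC-MeA and 13436 to 14440 in PiC-PrL libraries.

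Counts of Insig1 relative to those of Hmgcs1 do not depend on scaling between libraries. Per 100 counts of Hmgcs1 there were 12.9, 23.8 and 21.5 of Insig1 in male PiC-MeA and 7.05, 20.9 and 23.3 in female PiC-MeA libraries. Male PiC-PrL libraries had 50.5, 262, 76.5 and 173, and female PiC-PrL libraries 53.9, 84.8, 51.2 and 209. All 6 PiC-MeA libraries lay below all 8 PiC-PrL libraries. Of the 15 pairs of members with a count in every library, this was the only pair whose ratio did not overlap between the projections. The pair was singled out after its values were seen, so it carries no test, and 2.0% of tested genes were lower in PiC-MeA in their ratio to Hmgcs1 without overlap.

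**Figure D2:**
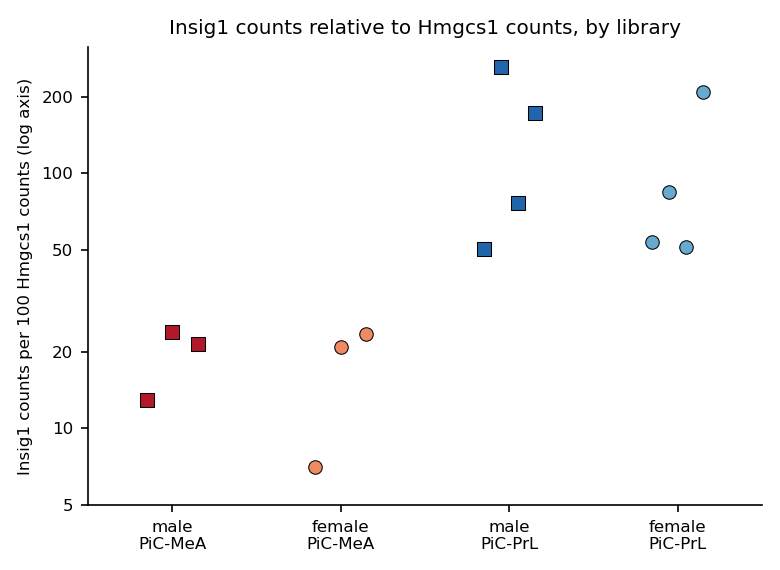
Counts of Insig1 per 100 counts of Hmgcs1 in each library, on a log axis, with a point per library. PiC-MeA libraries lie between 7.05 and 23.8 and PiC-PrL libraries between 50.5 and 262.

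Srebf2, which encodes the transcription factor of the pathway, showed no difference beyond its spread (chromosome 15, 82147181 to 82205379, ENSMUSG00000022463.8). It stood at 43.5, 26.7 and 20.2 CPM in male PiC-MeA and at 95.2, 40.0 and 29.3 CPM in female PiC-MeA libraries. Male PiC-PrL libraries had 26.7, 24.2, 15.4 and 33.8 CPM and female PiC-PrL libraries 20.9, 0.276, 53.1 and 98.9 CPM. Male PiC-PrL was the narrowest group and female PiC-PrL the widest. The log2 difference between PiC-MeA and PiC-PrL was 0.30 ± 0.86 (edgeR adjusted p = 0.955).

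Read over all 7, no member passed in PiC-MeA against PiC-PrL averaged over both sexes, where edgeR called 120 of 14599 genes (0.822%), 28 higher and 92 lower. At an unadjusted p under 0.05, 1 member was lower, Insig1, and none higher, against 5.27% of tested genes lower and 12.1% higher. The fitted difference was above 0 for 4 members and below 0 for 3, with a median of 0.29, against a median of 0.07 over all tested genes. By sex, no member passed in males, where edgeR called 88 genes (0.603%), nor in females, where edgeR called 0 genes (0.0%), 1619 had an unadjusted p under 0.05, DESeq2 called 628 and voom 31. DESeq2 called 1 member, Insig1, in the average and in males, and voom called it in males.

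Levels divided by exon length allow the members to be set beside each other. Over all 14 libraries Fdft1 (43.4 ± 36.8 CPM per kb), Hmgcs1 (38.4 ± 13.6) and Insig1 (34.0 ± 27.4) were highest and lay within each other's SD. Sqle followed at 16.4 ± 14.9 CPM per kb, then Srebf2 at 5.25 ± 3.92, Idi1 at 4.84 ± 3.61 and Dhcr7 at 1.19 ± 1.36 CPM per kb. From Fdft1 down to Idi1, neighbours in this order lay within the larger SD of the pair. Insig1 and Sqle, and Sqle and Srebf2, lay further apart than the smaller SD. The means of Idi1 and Dhcr7 lay more than either SD apart. Within male PiC-MeA neurons the highest mean was that of Hmgcs1 (44.4 ± 15.5 CPM per kb, n = 3), followed by Fdft1 at 19.7 ± 16.5. Hmgcs1 was also highest in female PiC-MeA neurons (52.3 ± 8.10 CPM per kb, n = 3), followed by Fdft1 at 42.3 ± 6.83. In male PiC-PrL neurons Fdft1 led at 79.4 ± 51.0 CPM per kb, ahead of Insig1 at 56.1 ± 29.0 (n = 4). In female PiC-PrL neurons Insig1 led at 43.6 ± 26.5, ahead of Hmgcs1 at 31.5 ± 12.4 CPM per kb (n = 4). In all 4 groups the SDs of the leading members overlap. The members share their libraries, and these SDs do not measure order within a library. In female PiC-MeA neurons Hmgcs1 was above Fdft1 in all 3 libraries (61.5, 49.0 and 46.3 against 49.7, 40.8 and 36.3 CPM per kb). In the other groups the order of the leading members changed between libraries and is not settled. No order was tested, within or between groups.

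Between the sexes, Fdft1 and Sqle showed wide gaps in mean CPM, but no member passed and the groups of all 7 overlapped. Of all tested genes, 1.49% were higher and 2.02% lower in males without overlap in PiC-PrL. In PiC-MeA these shares were 17.5% and 8.76%. In PiC-PrL neurons Fdft1 averaged 336 ± 216 CPM in males and 110.4 ± 81.7 CPM in females (SD, n = 4 each), and Sqle 153 ± 132 CPM in males and 42.4 ± 35.6 CPM in females. In PiC-MeA neurons Fdft1 averaged 83.2 ± 69.6 CPM in males and 179 ± 28.9 CPM in females (SD, n = 3 each), and Sqle 57.7 ± 28.8 CPM in males and 106 ± 29.6 CPM in females. The means were thus higher in males in PiC-PrL and lower in males in PiC-MeA. Those of PiC-PrL include female replicate 2, at 0.645 CPM of Fdft1 and 0.276 CPM of Sqle. They also include male replicate 4, at 599 CPM of Fdft1 and 330.2 CPM of Sqle. No member had an unadjusted p under 0.05 for sex in either projection, against 14.3% of tested genes in PiC-PrL and 12.4% in PiC-MeA.

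Over all genes edgeR called 0 (0.0%) for sex in either projection, with 2093 at an unadjusted p under 0.05 in PiC-PrL and 1805 in PiC-MeA. DESeq2 called 1017 and 777 genes in those projections and voom 8 and 1733. The difference between the sex differences was fitted as negative for all 7 members, as for 6598 of 14599 tested genes. By edgeR no member and 0 genes (0.0%) passed there, 2272 genes had an unadjusted p under 0.05, DESeq2 called 1156 and voom 643. DESeq2 and voom called no member in any of these 3 comparisons.

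The members did not vary as a unit over the 14 libraries. Correlations of log2(CPM + 1) are given as a description, since libraries share their groups and their depth. Of 21 pairs, 10 had a positive Pearson's r, and the median was -0.03. Sqle and Fdft1 had the highest value (r = 0.923, Spearman's rho = 0.851), which was 0.927 after centring each group on its mean and 0.736 without female PiC-PrL replicate 2. Sqle and Srebf2 (r = 0.793) and Fdft1 and Srebf2 (r = 0.772) rested on that library and had r = 0.245 and 0.193 without it. Hmgcs1 and Insig1 had the lowest value (r = -0.462), which was 0.108 after centring each group on its mean. Hmgcs1 and Fdft1 had r = -0.440, and -0.751 after centring, the lowest centred value. For Sqle, Fdft1 ranked 4th in r among 9513 genes and members, and for Fdft1, Sqle ranked 16th, both with that library included.

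**Figure D3:**
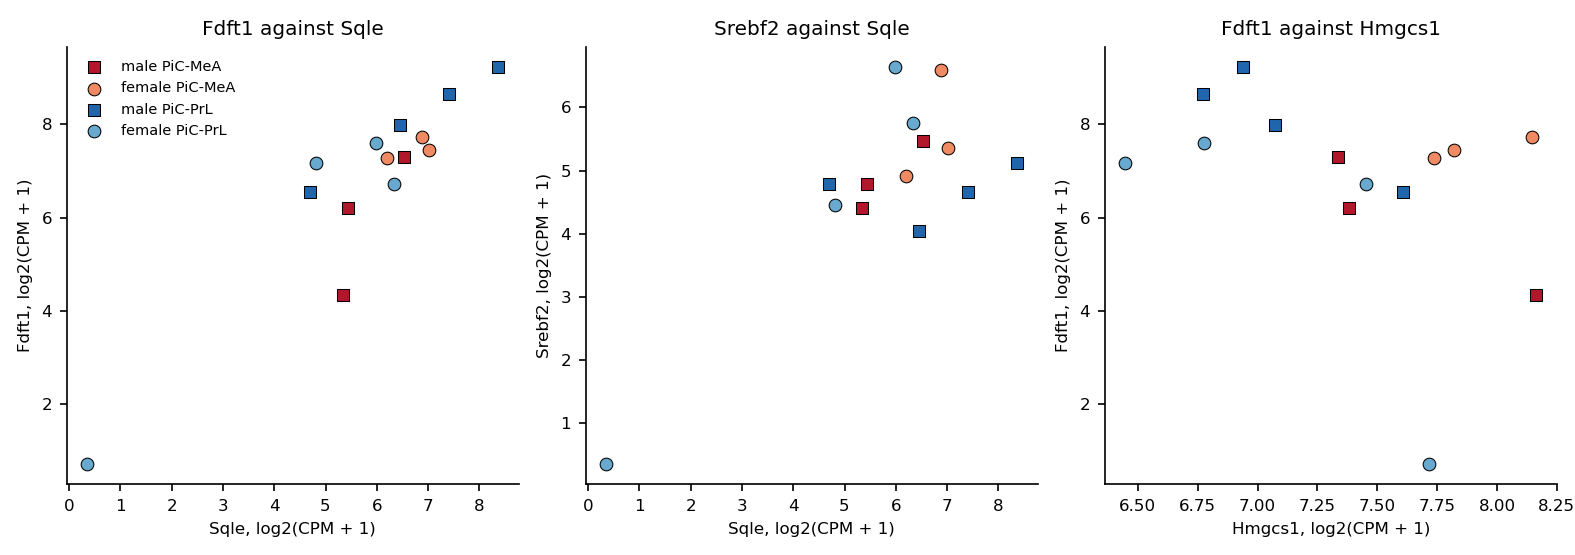
Levels of 3 pairs of members in each of the 14 libraries, as log2(CPM + 1) on both axes, with a point per library. Fdft1 follows Sqle over the whole range, Srebf2 follows Sqle mainly through 1 female PiC-PrL library near 0, and Fdft1 does not follow Hmgcs1.

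That library, female PiC-PrL replicate 2, had few counts of most of the 7 genes. It held under 10 counts of 5 members, Sqle (3), Fdft1 (7), Idi1 (3), Dhcr7 (4) and Srebf2 (3), but 2270 of Hmgcs1 and 1925 of Insig1. Of the other pathway genes named here, it held 717 counts of Acat2, 6293 of Abcg1 and 2634 of Apoe. None of the other 13 libraries had under 10 counts of more than 1 member. Of 8697 tested genes with a mean over 10 CPM, 25.0% had under 10 counts in this library, against 24.4% and 26.2% in male PiC-PrL replicates 2 and 4, and 0.989% to 17.3% in the other 11. Its mitochondrial share of counts was 12.2%, the highest of the PiC-PrL libraries, where the others had 3.81% to 8.39%. Among PiC-MeA libraries the share was 3.29% to 15.3%. Female PiC-PrL replicate 2 had 7780 genes with at least 10 counts, near the low end of the 7619 to 10309 in PiC-PrL libraries. Its total of 14374024 counts was not low.

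Genes most like the members were ranked by r with the mean of the members' standardised levels. Among 9507 genes with at least 10 counts in 7 or more libraries, the highest were Copz1, a subunit of the COPI vesicle coat (r = 0.934), and Ddx47, an RNA helicase (0.931). Next came Emg1, a ribosome assembly factor (0.923), Ankrd45 (0.919) and Ddb1, an adaptor of a ubiquitin ligase (0.912). Copz1 held 5 counts in female PiC-PrL replicate 2 and 340 or more in the others, and without that library the 5 values of r were 0.729 to 0.770.

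Among 46 other genes of the pathway, 42 were tested and none passed by edgeR in any comparison, while some named here passed by other tools. For PiC-MeA against PiC-PrL averaged over both sexes, 4 were lower and 1 higher at an unadjusted p under 0.05 and the median difference was -0.03, beside 5.27% lower and 12.1% higher over all tested genes. Further enzymes of sterol synthesis had 2 lower and 1 higher of 14 at that p, and genes of sterol export, storage and oxidation 2 lower of 7. The lists of SREBP machinery, of sterol uptake and of fatty acid synthesis had none. Mvd, an enzyme of the mevalonate pathway, was listed at 0 in all libraries and was not tested, nor were Fdps, Nr1h3 and Ch25h, with at most 122, 5 and 44 counts in any library.

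Acat2, a thiolase at the entry of the pathway, was at 28.6 to 159.6 CPM in PiC-MeA (median 78.2, n = 6) and at 66.1 to 488 CPM in PiC-PrL libraries (median 217, n = 8), a log2 difference of -1.43 ± 0.46 (edgeR adjusted p = 0.0893). In males alone Acat2 gave -2.42 ± 0.67 (edgeR adjusted p = 0.0790), with 3 libraries of male PiC-MeA below all 4 of male PiC-PrL. Of the 42 tested pathway genes, 2 were lower and 2 higher in male PiC-MeA without overlap. Over all tested genes these shares were 6.23% and 19.2%. Over both sexes the ranges of Acat2 overlapped between the projections. Acat2 passed by DESeq2 (adjusted p = 0.0279) and voom (0.0420) for the average, and in males by DESeq2 (0.00382) and voom (0.00911). Ggps1, which makes geranylgeranyl diphosphate and is named after its values were seen, averaged 82.8 ± 36.0 CPM in PiC-MeA (SD, n = 6) and 154 ± 46.6 CPM in PiC-PrL libraries (n = 8), a log2 difference of -0.89 ± 0.37 (edgeR adjusted p = 0.200).

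Abcg1, a transporter that exports sterols, was at 43.5 to 141 CPM in PiC-MeA (median 51.1, n = 6) and at 49.4 to 585 CPM in PiC-PrL libraries (median 224, n = 8). The log2 difference was -2.16 ± 0.51 (edgeR adjusted p = 0.0537). It was -2.10 ± 0.73 in females (edgeR adjusted p = 0.403) and -2.23 ± 0.73 in males (edgeR adjusted p = 0.0901). Abcg1 passed without male PiC-PrL replicate 1 (-2.41, adjusted p = 0.0384) or replicate 4 (-2.33, adjusted p = 0.0378), and in males it was -1.17 without male PiC-PrL replicate 2. It also passed for the average by DESeq2 (adjusted p = 0.00167) and voom (0.0306), and in males by DESeq2 (0.0299). Apoe, which carries lipids between brain cells and is made mainly by astrocytes, was at 150.4 to 770.4 CPM in PiC-MeA (median 279.7, n = 6) and at 243 to 1588 CPM in PiC-PrL libraries (median 651, n = 8), a log2 difference of -1.09 ± 0.37 (edgeR adjusted p = 0.112). Lbr, a sterol reductase of the nuclear envelope, had 1 to 128 counts in PiC-MeA and 0 to 2 counts in PiC-PrL libraries (edgeR adjusted p = 0.0594, DESeq2 0.0172), and its fitted difference depends on the prior count of the fit.

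**Figure D4:**
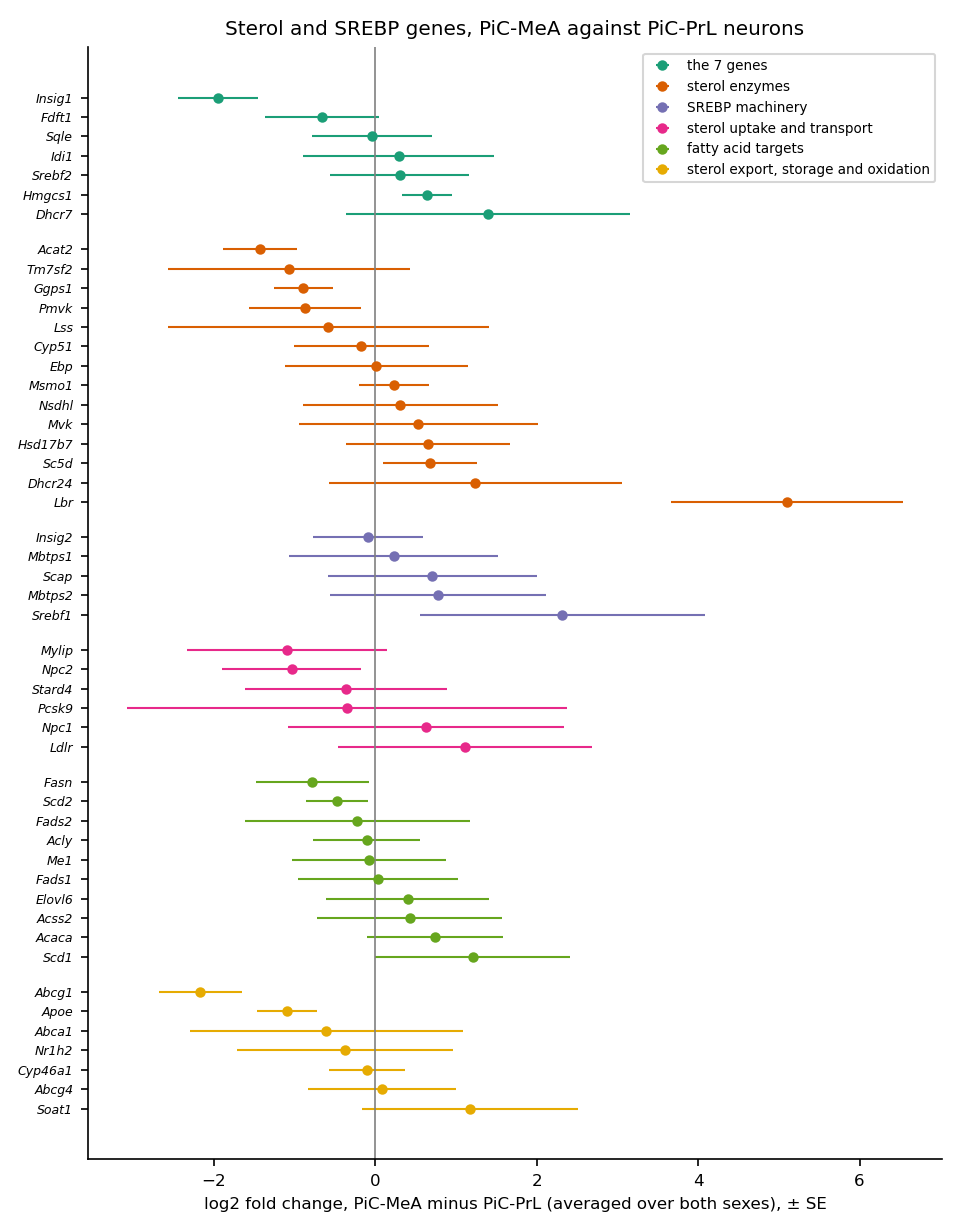
Fitted log2 difference of PiC-MeA minus PiC-PrL averaged over both sexes, with the SE as bars, for the 7 genes and for 42 other tested genes of the pathway by list. Insig1, Acat2, Ggps1, Abcg1 and Apoe lie left of 0 with short bars, Hmgcs1 and Lbr lie right of 0, and most other bars cross 0.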

How the data were processed

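Poly(A) RNA of 4 to 5 cells per tube was amplified with SMART-Seq2, per the labels' protocols. The authors deposited raw counts per gene, 1 column per library. Per the submitters' processing notes, build mm10 was used with HISAT2 2.2.1, featureCounts 2.0.1, Trimmomatic 0.39 and SAMtools. The annotation, strand setting and treatment of shared reads are not stated. Positions and exon lengths come from GENCODE M21 on the same build, matched by identifier (for Fdft1 without its version).

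Genes were filtered by filterByExpr (minimum count 10, total 15), scaled by the trimmed mean of M-values and fitted with edgeR 4.0.16 (robust quasi-likelihood, R 4.3.3) with 1 mean per group over all 14 libraries. The threshold was an adjusted p under 0.05 (Benjamini-Hochberg, over all 14599 genes). The code was tested on simulated data. DESeq2 1.42.0, limma 3.58.1 (voom with quality weights) and other settings were alternatives.

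All 7 members are given in every library. Fold changes are given for all 7 in the average over both sexes, and elsewhere where the unadjusted p was under 0.05 or the groups did not overlap. Other pathway genes are named at an unadjusted p under 0.01, at most 4 per comparison; 1 gene of the pathway is not reported here. The members and lists were chosen with earlier results of these data known. Residuals of 19 pairs of same-numbered libraries correlated between -0.0367 and 0.0495, so the numbers were not taken to pair samples.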

Additional observations from a re-analysis of the deposited data

Results flagged for a closer look

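In 14 sets of 4 libraries (7 genes in each PiC-PrL group), 1 value stood far from the others of its group, where chance gives about 1 in 20. Dhcr7 was at 4.42 CPM (62 counts) in female PiC-PrL replicate 3, against 0, 4 and 0 counts in the other 3 libraries.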

How the results depend on the processing

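The 10 printed differences of members kept their sign and their side of the threshold in 187 refits, passed in 3 and turned sign in 15. Insig1 passed by DESeq2 for the average (-1.90, adjusted p = 0.00142) and in males (-2.03, adjusted p = 0.0208), and by voom in males (-1.91, adjusted p = 0.0454). Members called were then 1 in each, and 0 in all other fits, leaving out any 1 library included (0 to 0 in all 6 comparisons). Sign turns in the average were Sqle at 0.65 ± 0.72 by voom and, with detected genes as a covariate, Sqle, Fdft1, Idi1 and Dhcr7. With that covariate Sqle stood at 4.05 ± 3.63, Fdft1 at 1.53 ± 3.24, Idi1 at -1.31 ± 4.80 and Dhcr7 at -1.17 ± 8.29. Insig1 in males turned to 0.57 ± 3.98 there and Apoe to 0.12 ± 1.56. Detected genes numbered 18964 to 20014 in male PiC-MeA and 12479 to 14908 in the other libraries. The covariate fit thus barely separates detected genes from male PiC-MeA and settles none of these signs. By leaving out 1 library, Sqle ran from -0.34 to 0.31, Idi1 from -0.076 to 0.59 and Srebf2 from -0.048 to 0.71. The cause was not tested. The 7 printed differences of other pathway genes passed in 13 refits, among them Abcg1 (adjusted p = 0.00118) and Apoe (0.0330) for the average without a filter, and Acat2 with only the male groups (0.0452).

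With the replicate block Sqle turned to 0.54, Insig1 gave -1.65 (adjusted p = 0.213), and 43 genes were called for the average and 38 in males; same-numbered libraries share only a number. Genes called in PiC-MeA against PiC-PrL (120 on average, 88 in males, 0 in females) were 452, 159 and 46 without a filter, 1492, 2022 and 628 by DESeq2, and 1147, 2604 and 31 by voom. With only the male groups in the fit 987 were called. With detected genes as a covariate 0 were called on average and 0 in males, in the fit with the wide SEs given above. For sex in PiC-PrL, sex in PiC-MeA and the difference of the sex differences (0 each), the counts were 38, 45 and 84 without a filter, 1017, 777 and 1156 by DESeq2, and 8, 1733 and 643 by voom. Of the 120 calls on average 28 were higher, against 961 of 1492 by DESeq2. Leaving out 1 library gave 39 to 128 on average, 20 to 139 in males, 0 to 1 in females, 0 to 1 for sex in PiC-PrL, 0 to 14 for sex in PiC-MeA and 0 to 5 for the difference. The average moved by over 1.5 times without PiC-MeA male replicates 2 (47) and 3 (48) or female replicates 1 (54), 2 (39) and 3 (57), and without PiC-PrL male replicates 2 (45) and 4 (53) or female replicate 2 (68). The count in males did so without male PiC-MeA replicates 1 (136), 2 (21) and 3 (25), female PiC-MeA replicate 3 (139), and male PiC-PrL replicates 2 (20), 3 (58) and 4 (29). Without male PiC-MeA replicate 1, sex in PiC-MeA gave 14. Insig1 in females was -1.76 without the male PiC-MeA libraries. Idi1 and Dhcr7 had under 10 counts in 2 and 6 libraries, and with SEs of 1.19 and 1.76 a difference of a few fold was not detectable for them.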
